A study of Mus musculus with 12 samples.

Results

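The miR-101 family of the mouse comprised 5 of the 1929 mature miRNA rows measured in fibrotic liver: mmu-miR-101a-3p, mmu-miR-101a-5p, mmu-miR-101b-3p, mmu-miR-101b-5p and mmu-miR-101c, written without the species prefix from here on. The members were taken by name, as all rows of the family, which was itself proposed with earlier results of these data known. Small RNA was sequenced in 12 libraries of C57BL/6 mouse liver. Mice of both groups received intraperitoneal CCl4 (carbon tetrachloride), a hepatotoxin used to produce hepatic fibrosis. The PZH group (6 libraries) was given Pien Tze Huang (PZH), a preparation of traditional Chinese medicine, into the stomach every day. The control group (6 libraries), here called water, was given double distilled water in its place. No group without CCl4 was analysed here, so levels in healthy liver are not known from these data, and the sources used here do not give the age and sex of the mice, the doses or the length of treatment. Each library is taken as 1 liver, which the labels imply without naming the animals, and p-values measure only the spread between these libraries.

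A miRNA is cut from a hairpin precursor whose 2 arms can each yield a mature strand of about the same size. One strand is usually kept by Argonaute as the guide and the other is degraded. The guide pairs with messages mainly through its seed, bases 2 to 8 from the 5′ end. In the miR-101 family the 3p strand is the guide. It is best known for repressing EZH2, the histone methyltransferase of the Polycomb complex PRC2, and in liver it has been described as restraining TGF-beta signalling and the activation of hepatic stellate cells, the main collagen-producing cells of the injured liver.

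The mature sequences explain which rows of the table can share reads. They are given 5′ to 3′ from RefSeq (build GRCm38.p6), with the seed in capitals.
miR-101a-3p: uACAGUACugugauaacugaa
miR-101b-3p: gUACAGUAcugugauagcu
miR-101c: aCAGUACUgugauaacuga
miR-101a-5p: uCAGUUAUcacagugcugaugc
miR-101b-5p: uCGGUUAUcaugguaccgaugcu
All 5 members were matched to RefSeq. Counted from 1 at the 5′ end of miR-101a-3p, the 19 bases of miR-101c were identical to positions 2 to 20 of miR-101a-3p, so a read of that stretch cannot be assigned to one of the 2 rows by sequence. The annotated miR-101b-3p starts 1 base earlier than miR-101a-3p and differs from it by the single substitution A16G (the base of miR-101a-3p first) over the 18 bases that both cover. Because the annotated 5′ ends are staggered by 1 base, the seed is UACAGUA in miR-101b-3p and ACAGUAC in miR-101a-3p, and it is CAGUACU in miR-101c. No other mature miRNA of RefSeq had the same bases 2 to 8 as any of the 5 members.

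Both hairpins with 2 measured arms are shown to place the strands, with the mature arms in capitals.
Mir101a, chr4:101346945-101347027, minus strand: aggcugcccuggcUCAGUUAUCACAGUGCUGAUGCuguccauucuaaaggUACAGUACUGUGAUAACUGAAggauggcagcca
Mir101b, chr19:29135279-29135375, plus strand: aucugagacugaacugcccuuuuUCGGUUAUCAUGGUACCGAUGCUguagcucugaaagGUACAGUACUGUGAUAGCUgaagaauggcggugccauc
In the Mir101b hairpin the 21 bases that begin at the first U of the guide differ from miR-101a-3p only at A16G, and a G precedes that U in both hairpins. The whole mature miR-101c sequence is present in the Mir101a hairpin and not in the Mir101b hairpin. In the GENCODE M21 annotation of GRCm38, Mir101a lies inside an exon of the non-coding gene E130102H24Rik on the same strand, and Mir101b lies in an intron of Rcl1, a protein-coding gene of the same strand that serves ribosomal RNA processing. Mir101c is annotated at chr9:3038669-3038743 on the minus strand, where no other gene overlaps it. For each of the 3 loci, 0 other miRNA genes lay within 50 kb.

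Libraries held between 4961913 and 20211784 counts with water and between 6065480 and 10436478 with PZH. The liver origin was apparent from miR-122-5p, the dominant miRNA of hepatocytes, with 104137 ± 8000 CPM in the water group and 107905 ± 13911 CPM in the PZH group (SD, n = 6 each). CPM, the count relative to library size, is given after TMM scaling throughout, and since miRNA reads span the whole molecule, no correction for length was made. The family as a whole held between 1.56% and 1.81% of all counts in the water libraries and between 1.27% and 1.51% in the PZH libraries, and these ranges did not overlap, as held for 3.62% of the single tested miRNAs in this direction. After TMM scaling the family's ranges did overlap, from 15316 to 17966 CPM with water and from 12214 to 15810 CPM with PZH, since PZH replicates 4 and 6 lay above water replicate 5.

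The guide strands made up nearly all of the family. In the water group miR-101b-3p held 62.6% ± 1.12 of the family's counts and miR-101a-3p 37.3% ± 1.14, and in the PZH group the values were 63.4% ± 1.99 and 36.5% ± 1.99 (SD, n = 6). The order of levels was the same in all 12 libraries: miR-101b-3p, miR-101a-3p, miR-101c, miR-101a-5p and last miR-101b-5p. Neighbours in this order did not overlap over the 12 libraries, since the lowest miR-101b-3p level of 7693 CPM lay above the highest miR-101a-3p level of 6953 CPM. The gap was narrow between miR-101c, at 7.77 CPM or more, and miR-101a-5p, at 7.08 CPM or less. By mean level over all 12 libraries miR-101b-3p ranked 21 and miR-101a-3p ranked 30 among the 1929 miRNAs, whereas miR-101c ranked 321 and miR-101a-5p 405.

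**Figure D1:**
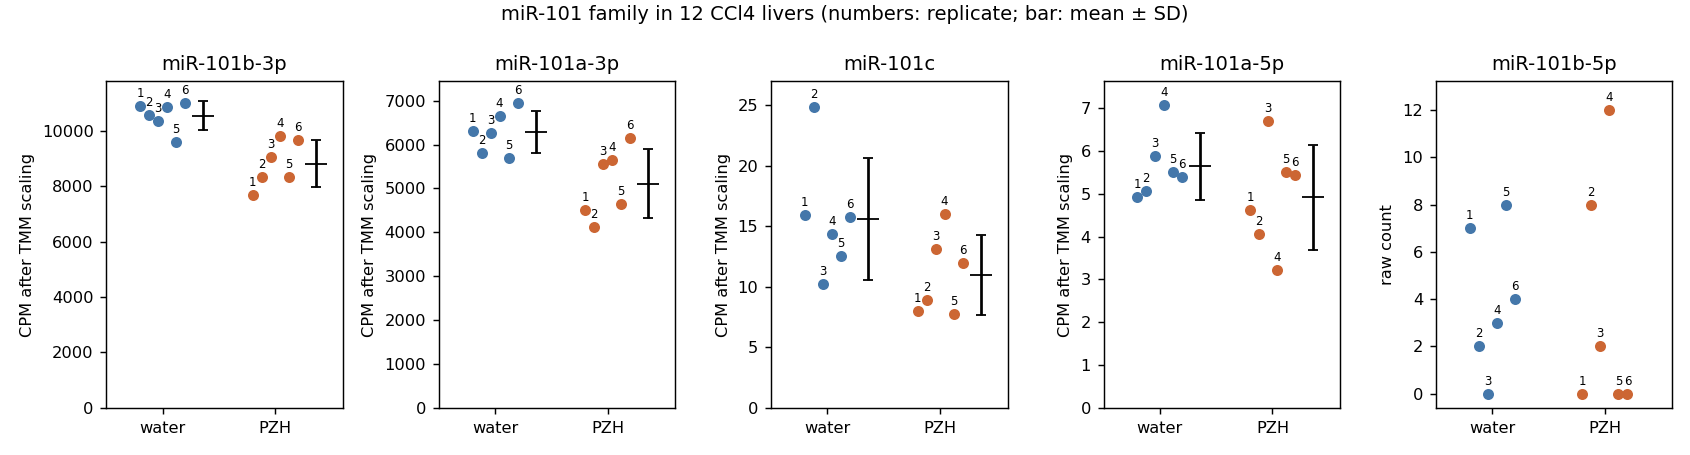
Each point is 1 liver, numbered by replicate, with CPM after TMM scaling on the vertical axis for 4 members and raw counts for miR-101b-5p. In the 4 CPM panels horizontal bars with whiskers are group means ± SD (n = 6), and the miR-101b-5p panel has no bars. For miR-101b-3p 4 and for miR-101a-3p 5 of 6 PZH points lie below the lowest water point, as do 3 of 6 for miR-101c and 3 of 6 for miR-101a-5p; the groups overlap in every panel.

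Both guide strands were lower in the livers of PZH-treated mice, by less than 20% each. Of the 5 members, 4 passed the filter on low counts and were tested, and 2 of the 4 were called lower at an edgeR adjusted p under 0.05, where 11.4% of all 607 tested miRNAs were called lower and 9.88% higher. DESeq2 called neither guide, where it called 6.60% of 1031 miRNAs lower. By limma-voom both were called, miR-101a-3p (adjusted p = 0.0360) and miR-101b-3p (adjusted p = 0.0153), where 10.5% of 607 were called lower. As the family was proposed with this contrast in view, this count is a description. Over all tested miRNAs the log2 fold change had a median of -0.03. Bulk tissue does not separate fewer cells of a type from less RNA per cell.

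The level of miR-101b-3p, the more abundant guide, ran from 9595 to 10992 CPM with a median of 10716 CPM with water, and from 7693 to 9815 CPM with a median of 8697 CPM with PZH. Of the 6 PZH livers, 4 lay below every water liver, while PZH replicates 4 and 6 lay just above water replicate 5. The mean fell from 10542 ± 522 CPM to a PZH value of 8813 ± 837 CPM (n = 6, SD; edgeR log2 fold change -0.26, SE 0.07, 95% interval -0.41 to -0.11, adjusted p = 0.0159). As a percent of the library's total count, with no TMM scaling, miR-101b-3p ran from 0.980% to 1.11% with water and from 0.824% to 0.957% with PZH, so that on this scale the groups did not overlap. That share of non-overlapping miRNAs was again 3.62%. After TMM scaling 4.94% of the tested miRNAs were separated in this direction, and none of the 4 tested members was. The call ended when water replicate 4 (adjusted p = 0.0667), PZH replicate 2 (0.0600) or PZH replicate 5 (0.0678) was left out, with log2 fold changes of -0.23, -0.22 and -0.23. It also ended with DESeq2 (-0.21, adjusted p = 0.0548) and with no filter on low counts (-0.23, adjusted p = 0.185). The adjusted p ranged from 0.00725 to 0.185 over the 22 alternatives, all with negative fold changes.

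For miR-101a-3p, the second guide, levels ran from 5702 to 6953 CPM with a median of 6281 CPM with water, and from 4126 to 6141 CPM with a median of 5100 CPM with PZH. Here 5 of the 6 PZH livers lay below every water liver, and PZH replicate 6 exceeded water replicates 2 and 5. Its mean fell from 6281 ± 480 CPM, reaching 5105 ± 787 CPM with PZH (n = 6, SD; edgeR log2 fold change -0.30, SE 0.10, 95% interval -0.50 to -0.09, adjusted p = 0.0394). This was the less stable of the calls, since it ended in 11 of 22 alternatives, with adjusted p between 0.0166 and 0.138 over all of them and negative fold changes throughout. The libraries whose omission ended it were water replicates 1, 4 and 6 (log2 fold changes -0.30, -0.26 and -0.27; adjusted p = 0.0695, 0.126 and 0.0715) and PZH replicates 1, 2, 3 and 5 (-0.27, -0.23, -0.32 and -0.26; adjusted p = 0.0541, 0.120, 0.0513 and 0.127). It also ended with RLE scaling (-0.26, adjusted p = 0.0623), DESeq2 (-0.25, adjusted p = 0.121), a filter of 10 CPM in 6 libraries (-0.21, adjusted p = 0.0739) and no filter (-0.26, adjusted p = 0.138).

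**Figure D2:**
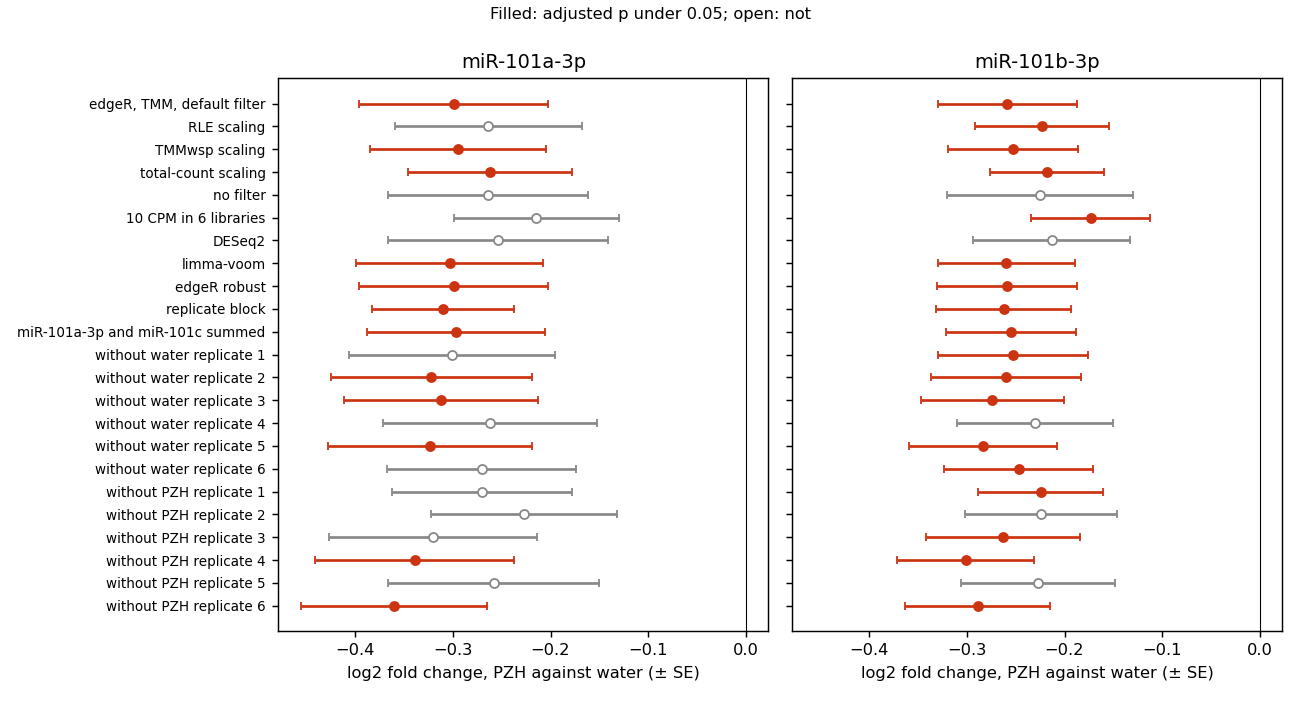
Points are log2 fold changes of PZH against water ± SE for both guides, with the setting on the vertical axis; filled points have an adjusted p under 0.05. All points lie below 0, between -0.36 and -0.21 for miR-101a-3p and between -0.30 and -0.17 for miR-101b-3p, and open points mark the settings in which the call ended.

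The size of these changes was small beside that of all miRNAs called lower, taken at any level. Among the 69 miRNAs called lower, only 1 had a smaller absolute log2 fold change than miR-101b-3p and 4 had a smaller one than miR-101a-3p. The median absolute log2 fold change of the 69 was 0.67. Only 12 of the 69 had a mean of at least 1000 CPM, and scarce miRNAs need larger changes to be called. Sizes were not compared among abundant miRNAs alone. The guides were measured closely: counts per library ran from 49974 to 202868 for miR-101b-3p and from 29291 to 111532 for miR-101a-3p, for which counting error alone gives a coefficient of variation under 0.5%. The observed coefficient of variation between mice was 4.95% with water and 9.50% with PZH for miR-101b-3p, and 7.64% and 15.4% for miR-101a-3p. For comparison, the 75 tested miRNAs whose mean reached 1000 CPM had median coefficients of variation of 7.64% and 12.2%. Of those 75, 16.0% were called lower and 9.33% higher, and their median log2 fold change was -0.01.

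**Figure D3:**
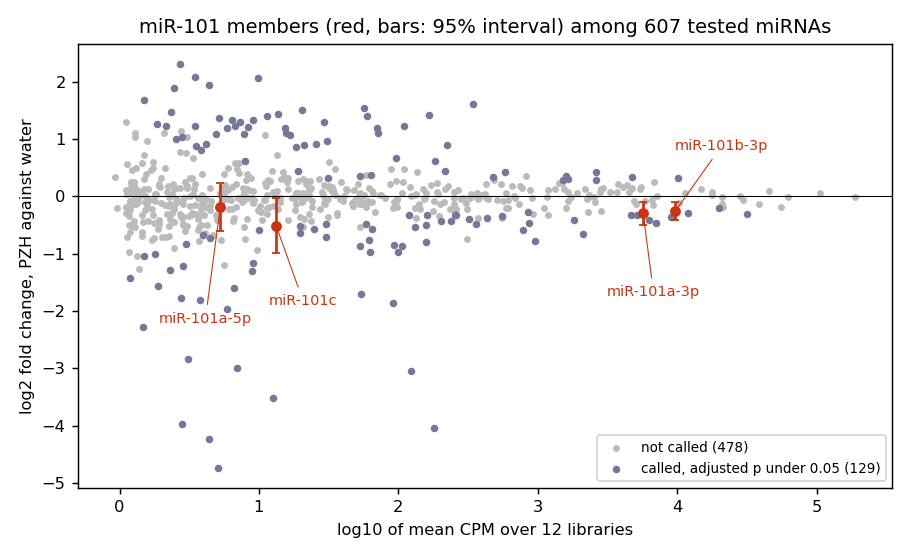
The horizontal axis is the log10 of the mean CPM over 12 libraries and the vertical axis the log2 fold change of PZH against water for the 607 tested miRNAs, with the 4 tested members in red and their 95% intervals as bars. Both guides sit at the right, at -0.26 and -0.30, with intervals below 0, and the interval of miR-101a-5p crosses 0.

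The remaining 3p form, miR-101c, was a minor row. It ran from 10.2 to 24.9 CPM with a median of 15.1 CPM with water and from 7.77 to 16.0 CPM with a median of 10.4 CPM with PZH. The groups overlapped, with 3 PZH livers below every water liver. The means were 15.6 ± 5.02 and 11.0 ± 3.29 CPM (n = 6, SD; edgeR log2 fold change -0.51, SE 0.23, unadjusted p = 0.0390, adjusted p = 0.130), which was not a call. Water replicate 2, the most deeply sequenced library, held the highest level, and without it the log2 fold change was -0.33 (edgeR adjusted p = 0.327). Counts of miR-101c equalled 0.251% ± 0.0914 of those of miR-101a-3p with water and 0.212% ± 0.0427 with PZH (SD, n = 6). Since every base of miR-101c lies within miR-101a-3p, the row may hold reads of miR-101a-3p, and the sources used here do not say how the authors assigned such reads. When both rows were summed before the fit, the log2 fold change of the sum was -0.30 (edgeR adjusted p = 0.0293).

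The passenger strands were scarce. The level of miR-101a-5p ran from 4.93 to 7.08 CPM with a median of 5.45 CPM with water and from 3.22 to 6.69 CPM with a median of 5.02 CPM with PZH. The groups overlapped, with 3 PZH livers below every water liver, and the difference was within the spread between mice (log2 fold change -0.19, SE 0.20, 95% interval -0.61 to 0.23, edgeR adjusted p = 0.583). That interval contains the fold changes of both guides, so a change of their size was not detectable for miR-101a-5p at 27 to 97 counts per library. Its coefficient of variation was 13.9% with water, where counting error alone gives 13.9%, and 24.9% with PZH, where counting error alone gives 15.9%.

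The other passenger strand, miR-101b-5p, was too low to be tested. Its counts with water were 7, 2, 0, 3, 8 and 4 in replicates 1 to 6, and with PZH they were 0, 8, 2, 12, 0 and 0. Thus 1 water liver and 3 PZH livers were at 0, and both groups also held livers with 8 counts or more. A count of 0 allows up to 3 counts, which is a level of up to 0.393 CPM in water replicate 3 and of up to 0.462, 0.338 and 0.362 CPM in PZH replicates 1, 5 and 6, for counting error only. No cell of the deposited table holds the value 1, so a 0 may stand for fewer than 2 counts, in which case these limits are too low. Fitted with no filter, its log2 fold change was 0.06 with an SE of 0.89 (edgeR adjusted p = 0.984), and no difference was detectable at this depth.

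Strand abundance was strongly one-sided in both hairpins and both groups. Summed over the 6 livers of a group, the 5p strand made up 0.0893% of the counts of both arms of miR-101a with water (367 of 5p against 410800 of 3p; exact binomial 95% interval 0.0804% to 0.0989%) and 0.0964% with PZH (261 against 270449; 0.0851% to 0.109%). For miR-101b the 5p share was 0.00342% with water (24 against 702501; 0.00219% to 0.00508%) and 0.00472% with PZH (22 against 466535; 0.00296% to 0.00714%). These intervals treat the pooled reads as independent and leave out the spread between livers. Since the reads carry no molecular identifiers, the intervals may be too narrow even for counting error. In each group the 5p share of miR-101b lay below that of miR-101a, with intervals that did not overlap.

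The balance of the miR-101a arms was compared between groups within each library, where no scaling enters. With water the log2 ratio of 5p to 3p was -10.10 ± 0.17, and for the PZH livers it was -10.01 ± 0.39 (SD, n = 6). The difference of 0.09 (SE 0.17, 95% interval -0.27 to 0.46) was not called by limma over the 137 hairpins tested (adjusted p = 0.791), of which 8.03% were called in either direction. Ordered from the lowest 5p share, the hairpin stood at place 3 of those 137. Of 737 hairpins with both arms measured, only these had a mean of at least 20 counts in each arm. That minimum leaves out hairpins with a very scarce strand, so the place holds only among the 137. The hairpin of miR-101b did not reach the minimum mean of 20 counts in both arms, with a mean of 3.83 counts for its 5p strand.

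The 2 guides come from different chromosomes, and their changes were compared through their ratio within each library. The ratio of miR-101b-3p to miR-101a-3p counts ran from 1.58 to 1.82 with water and from 1.57 to 2.02 with PZH, with means of 1.68 ± 0.0829 and 1.74 ± 0.155 (SD, n = 6). The water range lay within the wider PZH range, with PZH replicate 2 above every water liver and PZH replicate 6 just below all of them. On the log2 scale the difference was 0.05 (two-sided exact permutation p = 0.468 over 924 assignments, n = 6 per group). The shifts that the permutation test does not reject at 0.05 run from -0.08 to 0.18, so that a difference between the changes of the guides of up to 0.18 on the log2 scale remains possible.

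**Figure D4:**
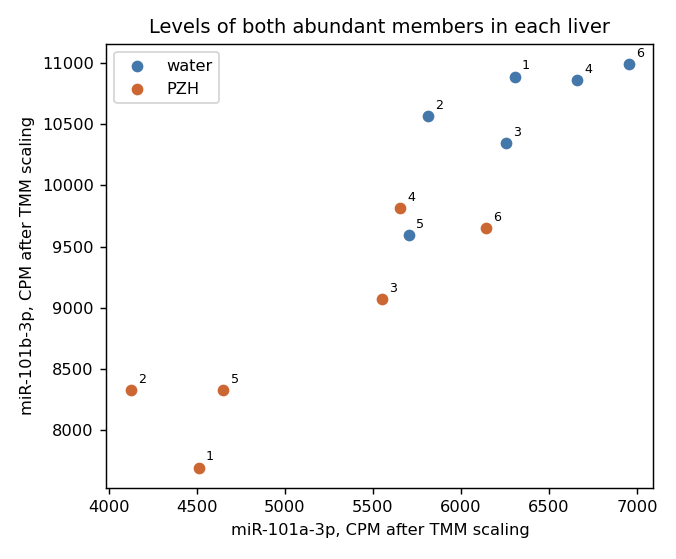
Each point is 1 liver, numbered by replicate, with miR-101a-3p on the horizontal and miR-101b-3p on the vertical axis, both in CPM after TMM scaling. PZH replicates 1, 2 and 5 sit at the lower left, between 4126 and 4650 CPM of miR-101a-3p, and PZH replicates 4 and 6 lie beside water replicate 5.

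Livers low in one guide tended to be low in the other, although no relation passed correction. Within the water group Pearson's r of the log2 levels was 0.78 (exact permutation p = 0.0542, adjusted p = 0.260) and Spearman's rho 0.89 (p = 0.0333, adjusted p = 0.260; n = 6). Within the PZH group r was 0.87 (exact permutation p = 0.0472, adjusted p = 0.260) and rho 0.77 (p = 0.103, adjusted p = 0.308; n = 6). Without the 2 livers farthest from the median of miR-101a-3p, r was 0.48 with water and 0.95 with PZH over the 4 livers left. Adjustment was over 24 tests of 12 relations among the 4 tested members, of which 4 had an unadjusted p under 0.05 and 0 an adjusted one. All 12 levels share the scaling of their libraries. The guides differ at A16G, so they could share only reads that lack this base or were matched with a mismatch. The sources used here do not say how such reads were counted.

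The miRNAs most like each guide were named from 172 others whose mean reached 100 CPM, by Pearson's r of log2 CPM centred on group means over the 12 libraries. For miR-101a-3p they were miR-192-5p (r = 0.85), miR-30e-5p (0.85), miR-30a-5p (0.84), miR-32-5p (0.80) and miR-130a-3p (0.78). For miR-101b-3p they were miR-151-5p (0.81), miR-152-3p (0.80), miR-322-3p (0.79), miR-29c-3p (0.78) and miR-192-5p (0.78). The guides correlated with each other at 0.85, which was above every other miRNA for miR-101b-3p and at place 3 for miR-101a-3p. Of these 9 miRNAs, miR-30e-5p (log2 fold change -0.28), miR-30a-5p (-0.31), miR-322-3p (-0.37) and miR-29c-3p (-0.40) were called lower by edgeR, the first and the third of these with calls lost when water replicate 4 or PZH replicate 2 or 5 was left out. In the same fit miR-192-5p (-0.20), miR-32-5p (-0.23), miR-130a-3p (-0.06), miR-151-5p (0.03) and miR-152-3p (-0.08) were not called. These values describe likeness over 12 libraries that share 1 scaling and carry no test.

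To set the guides beside a hepatocyte miRNA without any scaling, their counts were divided by those of miR-122-5p in the same library, a comparison chosen after the data were seen. For miR-101a-3p the water livers had a ratio of 0.0608 ± 0.00814 and the PZH livers one of 0.0476 ± 0.00755 (SD, n = 6; log2 difference -0.35, two-sided exact permutation p = 0.0173, adjusted p = 0.0173 over 2 tests). For miR-101b-3p the ratios were 0.102 ± 0.0102 and 0.0824 ± 0.00999 in the same order (SD, n = 6; log2 difference -0.31, two-sided exact permutation p = 0.0108, adjusted p = 0.0173). The groups overlapped in both, and PZH replicate 3 was the PZH liver with the highest ratios, 0.0615 and 0.100. With differences taken between same-numbered libraries, each exact sign-flip p was 0.0625, in a test that allows only few p-values with n = 6. No other hepatocyte miRNA was used as the denominator, so these differences hold for miR-122-5p only. Its own edgeR log2 fold change was 0.05, against 0.0037 for miR-148a-3p, -0.14 for miR-194-5p and -0.20 for miR-192-5p.

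**Figure D5:**
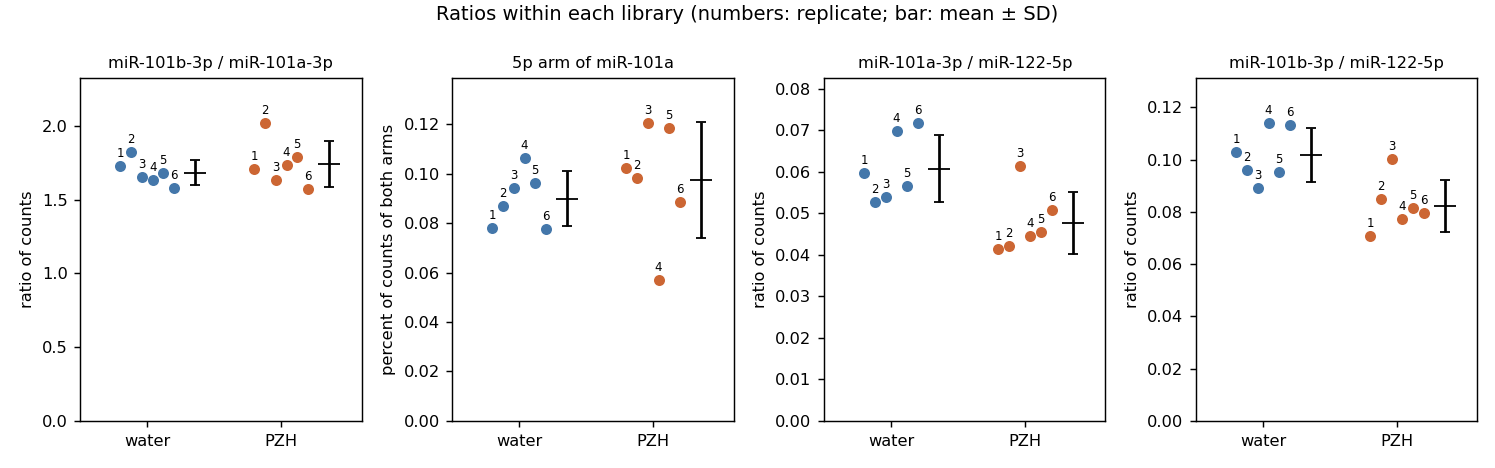
Each panel gives 1 value per liver, numbered by replicate, with group means ± SD (n = 6) as bars: 3 ratios of counts and the 5p percent of miR-101a counts. The ratio of the guides and the 5p percent overlap between groups, and the ratios to miR-122-5p are lower with PZH in the mean, 0.0476 against 0.0608 and 0.0824 against 0.102.

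Only 1 other mature miRNA of RefSeq, miR-144-3p, has the bases ACAGUA at positions 2 to 7 of miR-101a-3p, 2 of 1679 mature names (0.119%) in all. It is an erythroid miRNA and is shown because its seed resembles that of the family, with the seed in capitals.
miR-144-3p: uACAGUAUagaugauguacu
Its level with water was 3098 ± 598 CPM, and in the PZH livers it was 2591 ± 687 CPM (n = 6, SD; edgeR log2 fold change -0.26, SE 0.17, adjusted p = 0.342). The point estimate was like those of the guides, and with the wider spread between mice it was not called. It is identical to miR-101a-3p at 8 of 20 positions, and the first that differs is C8U.

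Of 10 other miRNAs reported to act on EZH2, 8 were tested, of which 1 rose, 0 fell and 7 were not called, with a median log2 fold change of 0.15 against -0.03 over all tested miRNAs. With 11.4% of all tested miRNAs called lower and 9.88% higher, these counts are near the background and are no result about the list. The one that rose was let-7b-5p, a let-7 family member that restrains growth, with 2360 ± 306 CPM in the water livers and 2861 ± 277 CPM in the others (n = 6, SD; edgeR log2 fold change 0.28, adjusted p = 0.0495). Its call was lost in 12 of 22 alternatives. Next by p were miR-98-5p (0.21, adjusted p = 0.0703) and let-7c-5p (0.17, adjusted p = 0.280), both of the same family. The low counts of miR-124-3p and miR-217-5p kept them out of the test.

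Among 13 miRNAs reported to restrain collagen production or stellate cell activation, 7 fell, 0 rose and 6 were not called, and the median log2 fold change was -0.31. Of all tested miRNAs 11.4% were called lower, and 16.0% of those whose mean reached 1000 CPM. The members with the smallest p were miR-335-5p, from the imprinted Mest locus, which fell from 1207 ± 249 CPM and stood at 706 ± 154 CPM with PZH (n = 6, SD; edgeR log2 fold change -0.77), miR-29c-3p, a repressor of collagen messages (-0.40), and miR-378a-3p, from an intron of Ppargc1b (-0.33), with edgeR adjusted p of 0.00306, 0.00583 and 0.00755. The list was drawn up with earlier results of these data known, so its count is not independent evidence of a direction.

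Markers of the cell types of the liver are given beside the fall of the guides, and their part in it was not tested. The counts in these small lists stand against 11.4% of all tested miRNAs called lower and 9.88% called higher. Of 9 miRNAs listed here as hepatocyte markers 3 fell and 0 rose, namely miR-455-3p (log2 fold change -0.53), miR-802-5p (-0.65) and miR-193a-3p (-0.48). Of these, miR-455-3p and miR-193a-3p were scarce, with means of 133 and 30.1 CPM over all libraries. Whether they mark hepatocytes in these livers was not tested. The list median was -0.14, with a summed level of 221761 to 256920 CPM with water and 203292 to 264488 CPM with PZH. Of the more abundant members, miR-802-5p was among those that fell, and edgeR did not call miR-192-5p (-0.20, adjusted p = 0.169), miR-194-5p (-0.14, adjusted p = 0.185), miR-148a-3p (0.0037) or miR-122-5p (0.05). Both strands of the endothelial miR-126a fell (-0.36 and -0.33; summed level 12863 to 17096 and 10272 to 13900 CPM), and 1 of 5 leukocyte miRNAs, the myeloid miR-223-3p, fell (-0.58; summed level 4147 to 5972 and 3091 to 5513 CPM). The leukocyte list had a median of -0.32, with 4 of its 5 fold changes negative. None of 5 mesenchymal miRNAs was called (median 0.07; summed level 63446 to 92359 and 52788 to 92619 CPM), nor either of 2 erythroid ones (median -0.28; 2945 to 4743 and 2429 to 4582 CPM). Of 5 epithelial and biliary miRNAs 2 fell, miR-200c-3p (-0.97) and miR-141-3p (-0.87), with a list median of -0.20 and a summed level of 931 to 2192 and 864 to 1246 CPM, and the pancreatic miR-375-3p fell (-1.97; summed level of 3 pancreatic miRNAs 3.37 to 27.9 and 3.11 to 6.25 CPM). Without water replicate 2 the log2 fold changes of miR-375-3p, miR-200c-3p and miR-141-3p were -1.27, -0.53 and -0.48 (edgeR adjusted p = 0.0123, 0.0390 and 0.0831), so the call of miR-141-3p was lost. The calls of miR-126a-5p, miR-200c-3p and miR-141-3p were also lost on omission of several other single libraries, whereas those of miR-126a-3p, miR-223-3p, miR-455-3p and miR-802-5p held in all alternatives. All markers in these cell type lists had counts in each of the 12 libraries.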

How the data were processed

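The authors deposited 1 table of raw counts per mature miRNA for 12 libraries, with no normalization, as seen from its whole numbers. Cutadapt, FastQC, BWA and DESeq2 and the build GRCm38 are named in the submitters' processing notes. The sources used here do not give the counting tool, the miRNA annotation or the treatment of reads with more than 1 match.

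Counts were compared by edgeR 4.0.16 (quasi-likelihood test, R 4.3.3) over 607 miRNAs after TMM scaling and the default filter, with Benjamini-Hochberg adjustment over all of them and a threshold of 0.05. Intervals use the SE implied by the edgeR statistic. Arm ratios used limma 3.58.1 with a pseudocount of 1. Levels for relations were log2 CPM with a prior count of 2. DESeq2 1.42.0, limma-voom, other scalings and filters, a replicate block and the omission of each library were alternatives. The tests were tried on simulated data. The miRNAs named beside the members were up to 3 of each list by p, seed relatives, neighbours within 50 kb and the 5 most alike to each guide. Members and lists were chosen with earlier results of these data known.

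Both groups are numbered 1 to 6, and the labels do not tie equal numbers to a shared litter or day. Correlations of same-numbered libraries, centred on group means, lay between -0.15 and 0.08, so no pairing was used.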

Additional observations from a re-analysis of the deposited data

Results flagged for a closer look

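In 26 checks of a highest or lowest library within a group of 6, 1 value stood apart from the other libraries of its group. Counts of miR-101c in water replicate 2 equalled 0.428% of those of miR-101a-3p, against 0.253% in the next water library. About 1 in 20 such checks is expected to stand apart by chance. Water replicate 2 had the largest total, 20211784 counts, and the part of depth in this value was not tested.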

How the results depend on the processing

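Both guides kept negative fold changes in all 22 alternatives, and their calls depended on the processing. For miR-101a-3p the log2 fold change was -0.26 with RLE scaling, -0.26 with no filter, -0.21 with 10 CPM in 6 libraries and -0.25 with DESeq2, each without a call, and -0.36 to -0.23 when 1 library was left out. For miR-101b-3p it was -0.23 with no filter and -0.21 with DESeq2, without a call, and -0.30 to -0.22 when 1 library was left out. Under the replicate block the values were -0.31 and -0.26, with both calls kept and 114 calls over all miRNAs in place of 129. The differences of the log2 ratios of miR-101a-3p and miR-101b-3p to miR-122-5p, -0.35 and -0.31, lost their calls (exact sign-flip p = 0.0625 each). That test allows only few p-values, so it differs in power from the permutation over all assignments. With the block miR-101a-5p and miR-101c stayed without a call.

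The number of miRNAs called ranged from 94 to 144. With 10 CPM in 6 libraries, 35 were lower and 59 higher, against 69 and 60, and the median log2 fold change of the tested miRNAs went from -0.03 to 0.07. Without a filter that median was -0.16 and with DESeq2 -0.14, over other sets of miRNAs. The arm ratio of miR-101a, the ratio of the guides and the relations between them gave no call in any alternative run.

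Of 681 values of 31 other named miRNAs, 605 kept direction and call, 59 lost a call, 10 gained one and 7 changed sign. The last belonged to miR-130a-3p (0.028 with 10 CPM in 6 libraries; -0.11 to 0.033 without 1 library), miR-151-5p (-0.025 to 0.078 without 1 library, with -0.00098, -0.0037 and -0.025 among them), miR-152-3p (0.0033 with 10 CPM in 6 libraries) and miR-199a-5p (-0.012 to 0.14 without 1 library). Depth kept miR-101b-5p, with a mean of 3.83 counts, out of the tests.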
